A study of Mus musculus with 24 samples.

Results

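Endocrine progenitors of the fetal mouse pancreas were compared between maternal low-protein and normal diet in 7 of the 24 libraries of the series. The 4 low-protein libraries titled control (LPD 1 to LPD 4) were set against the 3 normal-diet libraries titled control (ND 2, ND 3 and ND 4), which the titles select and no measured value does. The library titled control ND 1 was left out because its genotype is mixed. The cells carry an allele in which eGFP stands in place of the Neurog3 (Ngn3) coding sequence, and both parents were Ngn3eGFP/+. For all 7 libraries the genotype field reads Ngn3eGFP/eGFP, a genotype with no Neurog3 coding sequence left, whereas it reads Ngn3eGFP/+ for the libraries titled mutant, and the Neurog3 counts given below go with the titles. Dams entered at 6 weeks of age, ate the low-protein, high-fat or normal diet for 2 weeks before mating with males on a control diet, and kept it until embryos were taken at E15.5. Males and females were pooled, pancreata were dissociated with trypsin, eGFP-positive cells were sorted, and strand-specific libraries were made from 50 ng of RNA after depletion of ribosomal RNA. The sources used here give neither the composition of the diets nor the strain, and they do not say whether replicates came from separate litters. P-values therefore reflect only how far libraries spread, which may in part be technical. In the main edgeR fit that spread was estimated over all fitted libraries, titled mutant ones included, and not over the 7 alone. The 3 high-fat (HFD) libraries titled control, and the 4 LPD and 4 ND libraries titled mutant, otherwise serve only for comparison. Besides tests of a difference, HFD libraries enter the library correlations, the figures and calls of HFD against ND. The titled mutant libraries also have their own calls of LPD against ND.

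Neurog3 is the transcription factor that commits bipotent trunk cells of the pancreatic epithelium to the endocrine lineage, while neighbouring tip cells become the acinar cells that make digestive enzymes. Cells short of amino acids activate the kinase GCN2 and the transcription factor ATF4, which switches on genes of amino acid synthesis, uptake and tRNA charging, asparagine synthetase (Asns) among them. Maternal protein restriction in rodents is a long-used model of altered islet development. Because eGFP outlasts Neurog3, a sort on it collects progenitors and their recent descendants, and in such bulk RNA fewer cells of a type and less RNA per cell cannot be told apart.

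The sorted cells carried the markers of the label. Neurog3 lay between 135 and 205 CPM (counts relative to library size, scaled by the trimmed mean of M-values, TMM) in the 7 libraries and between 85.0 and 205 CPM in all 10 titled control libraries, against 6.01 to 23 CPM in the 11 titled mutant ones. Chga, which encodes a protein of endocrine secretory granules, had 247 to 1053 CPM in the 7 libraries, and Epcam of the epithelium had 194 to 334 CPM. Total counts were 17922240 to 40950218 in LPD and 25285856 to 31997036 in ND libraries, with the lowest total in LPD 1. Duplicate reads made up 41.1% to 63.4% of LPD and 48.0% to 79.1% of ND libraries, and the single gene Gm26917 took 9.42% to 17.2% of LPD and 10.7% to 32.7% of ND counts, ND 2 being the highest in both. Library numbers in the sample descriptions were 5, 6, 17 and 22 for LPD, and 31, 32 and 8 for ND 2, ND 3 and ND 4.

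LPD 1 stood apart from the other 3 LPD libraries. Across 23630 genes, which are not independent replicates, its Spearman correlation with LPD 2, LPD 3 and LPD 4 was 0.966 to 0.970, while with ND 3 it was 0.983 and with ND 4 it was 0.980. With ND 2 it was lower, at 0.961. ND 2 was itself apart, at 0.947 to 0.963 with every other titled control library. LPD 2 and LPD 3 correlated at 0.984 with each other, and LPD 4 at 0.982 to 0.985 with the 3 HFD libraries. The highest correlation of LPD 1 was therefore with an ND library, which was the case for none of the other LPD libraries. The labels give no reason to treat LPD 1 differently, and it was kept in every test unless stated. Whether it is labelled correctly was not tested, and if it were not, the values with all 4 LPD libraries would not compare the diets as named. Values without it are given beside those with it. LPD 1 was singled out from these data, so a p-value without it describes LPD 2 to LPD 4 against ND and not the diet groups as labelled.

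**Figure D1:**
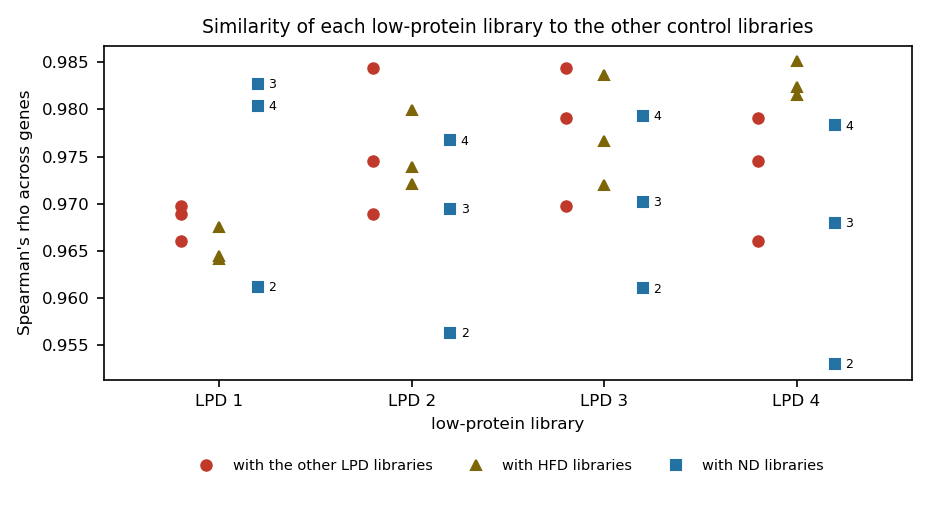
Spearman's rho across genes (vertical axis) between each low-protein library (horizontal axis) and the other LPD (circles), HFD (triangles) and ND (squares, replicate number beside them) libraries titled control. LPD 1 sits highest with ND 3 and ND 4, at 0.983 and 0.980, and lowest with ND 2, at 0.961. LPD 2 to LPD 4 sit highest with another LPD or an HFD library.

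With all 4 LPD libraries, no gene passed the test against ND. The quasi-likelihood test of edgeR, fitted on 21 libraries of 6 groups, called 0 of 23630 genes (0%) at an adjusted p of 0.05, and the smallest adjusted p was 0.612. Before adjustment 1553 genes (6.57%) had a p under 0.05, of which 1076 (4.55% of genes tested) were higher and 477 (2.02%) lower in LPD. All 4 LPD libraries lay above all 3 ND libraries for 569 genes (2.41%) and below them for 474 (2.01%). DESeq2 called 7 genes, with Pfkp, Rgs11, Egln3, Il22ra1 and Gm34678 higher and Serpina3k and Gm45516 lower. The Serpina3k call rests on 15 reads in ND 2 and 2 in ND 3, with 0 in the 4 LPD libraries and in ND 4. Limma on log2(FPKM + 1) called 0 genes and had 959 under an unadjusted p of 0.05. The standard error of the log2 fold change had a median of 0.20 over genes that averaged 5 CPM or more.

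Rgs11, a regulator of G protein signalling, had the smallest p among genes with an established name, 5 CPM or more and no overlap between the groups. It had 27.9, 52.8, 60.4 and 41.4 CPM in LPD 1 to LPD 4, against 25.3, 20.8 and 23.4 CPM in ND 2 to ND 4. Its log2 fold change was 0.98 (SE 0.20, unadjusted p = 8.92e-05, adjusted p = 0.612, edgeR). Pfkp, the platelet isoform of the glycolytic enzyme phosphofructokinase, had 16.1, 21.7, 21.4 and 24 CPM in LPD against 11.2, 12.5 and 14.4 CPM in ND, a log2 fold change of 0.71 (SE 0.15, adjusted p = 0.612, edgeR). In both genes LPD 1 was the lowest LPD library and lay just above the highest ND library. The other 8 genes of smallest p were also higher in LPD, with log2 fold changes of 0.46 to 2.04, and none passed. They were Slc39a14, a zinc importer, Mknk1, a kinase of the translation factor eIF4E, Dglucy, Mab21l3, Farp2, Hmga1b, Slc25a28, a mitochondrial iron carrier, and Deptor, an inhibitor of mTOR. Hmga1b shares near-identical sequence with Hmga1, and its count is uncertain.

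When each library was left out in turn, the count of called genes stayed at 0 except without LPD 1. Without LPD 1 edgeR called 306 of 23380 genes higher (1.31%) and 4 lower (0.0171%). The choice of genes that passed only without LPD 1 largely fixes where LPD 1 lies in them, so its position there is a description and no separate sign that it stood apart. In all 306 genes LPD 1 was below every other LPD library, and in 287 it was at or below the highest ND library. Relative to the ND mean, the median log2 level of these genes was -0.17 in LPD 1 but 0.73, 0.80 and 0.87 in LPD 2, LPD 3 and LPD 4, against -0.12, -0.04 and 0.17 in ND 2, ND 3 and ND 4. The 4 lower genes were Crybg3, Il4ra, a subunit of the interleukin-4 receptor, Sesn3, a stress-induced regulator of mTORC1, and Gm45516.

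The 306 also depended on the fit and on the ND libraries. DESeq2 called 647 higher and 158 lower, including 303 of the 306. Limma on log2(FPKM + 1) called 7 higher and 37 lower, including 5 of the 306. A fit on the LPD 2 to LPD 4 and ND libraries alone called 46 higher and 0 lower. Leaving out a further library gave 84 higher without LPD 4, 107 without LPD 3, 228 without LPD 2, 51 without ND 2, 86 without ND 3 and 573 without ND 4. ND 2 and ND 3 carry library numbers above 25 and all LPD libraries lower ones, and with ND 4 as the only ND library 0 genes were called higher and 2 lower, Bpifb1 and Cym. Adding whether a library number reached 25 to the model left 137 higher, of which 98 were among the 306.

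**Figure D2:**
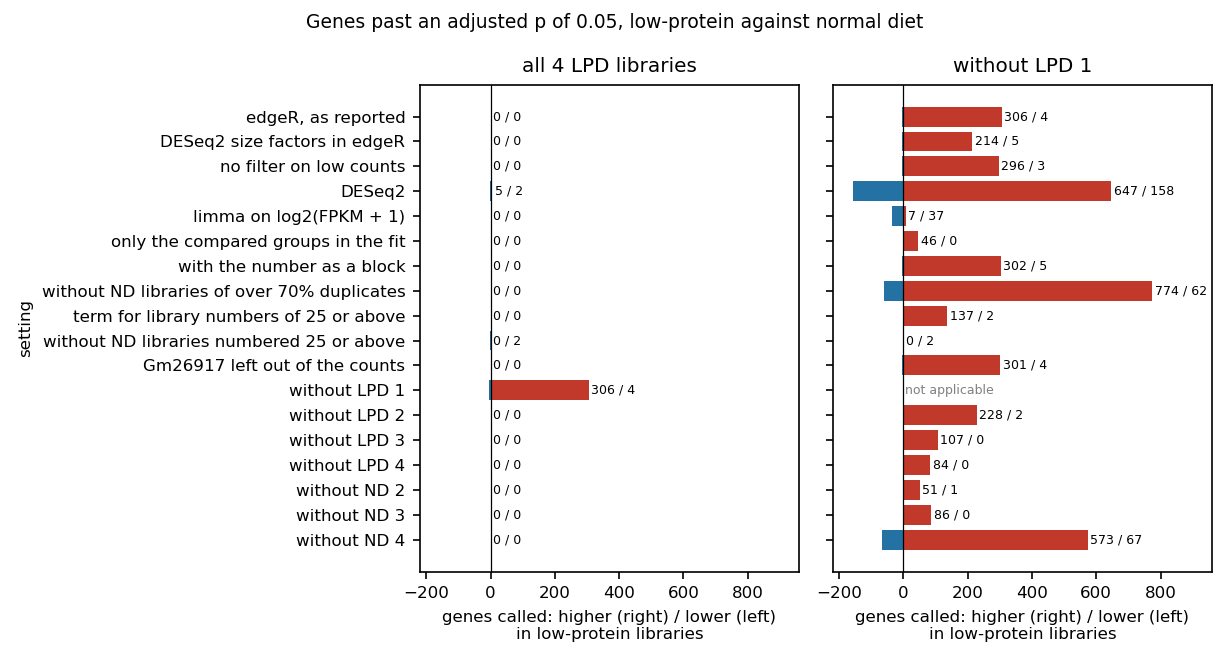
Genes called higher (red, right of 0) and lower (blue, left of 0) in low-protein against normal-diet libraries under each setting (rows), with all 4 LPD libraries (left panel) and without LPD 1 (right panel); the numbers give higher / lower. The left panel is at or near 0 apart from the setting without LPD 1, with 306 higher and 4 lower, and the right panel runs from 0 to 774 higher.

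Part of the amino acid response genes were called higher in LPD without LPD 1. With all libraries 0 of the 33 tested passed, 15 had an unadjusted p under 0.05, all of them higher in LPD (4.55% of all genes were), and the median log2 fold change was 0.55, against 0.02 over all genes. Without LPD 1, 9 of the 33 were called higher (1.31% of all genes were), with a median of 0.74 against 0.01 over all genes. The list was written with earlier results of these data known. Its median relative to the ND mean was -0.22 in LPD 1 and 0.49, 0.56 and 0.96 in LPD 2, LPD 3 and LPD 4.

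Asns, which makes asparagine and is a standard readout of ATF4, is shown first, together with Pycr1, which completes proline synthesis and is not on the list. The 250 bases before the start of each gene are given 5′ to 3′ because both hold the amino acid response element TGATGNAA, in capitals. ACGTG or its reverse complement CACGT is in capitals as well. The sequences are those of RefSeq on GRCm38.p6, with Asns at chr6:7693210-7693459 (minus strand) and Pycr1 at chr11:120643749-120643998 (minus strand).
Asns: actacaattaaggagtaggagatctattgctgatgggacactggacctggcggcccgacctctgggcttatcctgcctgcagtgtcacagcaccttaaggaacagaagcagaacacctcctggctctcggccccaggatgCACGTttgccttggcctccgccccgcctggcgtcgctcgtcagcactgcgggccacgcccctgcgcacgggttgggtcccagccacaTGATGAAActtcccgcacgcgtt
Pycr1: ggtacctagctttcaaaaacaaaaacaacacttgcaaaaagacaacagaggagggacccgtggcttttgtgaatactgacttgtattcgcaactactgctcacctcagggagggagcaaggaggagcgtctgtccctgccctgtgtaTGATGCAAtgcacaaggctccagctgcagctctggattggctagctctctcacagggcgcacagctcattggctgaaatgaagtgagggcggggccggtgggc
On either strand TGATGNAA was found in this window in 8 of the 29 amino acid response genes matched in RefSeq (27.6%), against 3.91% of all 27025 genes. Among the 306 genes called higher without LPD 1, 229 were matched and 12 held it (5.24%). The 27025 genes include genes not tested here. A match is a description of these letters and no evidence of binding.

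Asns had 61.6, 163, 154 and 175 CPM in LPD 1 to LPD 4, against 71.4, 74.4 and 73.7 CPM in ND 2 to ND 4. LPD 2 to LPD 4 were above every ND library and LPD 1 below all of them. The log2 fold change was 0.92 (SE 0.26, 95% interval 0.38 to 1.46, adjusted p = 0.612, edgeR) with LPD 1, and 1.15 (SE 0.18, adjusted p = 0.00379, edgeR) without it. Pycr1 had 10.4, 32.3, 34.5 and 29.3 CPM in LPD against 10.7, 15.9 and 10.6 CPM in ND, with the same order of libraries, and a log2 fold change of 1.36 without LPD 1 (SE 0.22, adjusted p = 0.00443, edgeR).

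Some enzymes of serine, glycine and cysteine synthesis also had LPD 2 to LPD 4 above every ND library. Shmt2, the mitochondrial enzyme that turns serine into glycine, had 67.4, 160, 170 and 185 CPM in LPD against 70.8, 78.2 and 88.6 CPM in ND (log2 fold change 1.10 without LPD 1, SE 0.13, adjusted p = 0.000612, edgeR). Cbs, the first enzyme of transsulfuration, had 76.2, 217, 228 and 204 CPM in LPD against 99.3, 91.2 and 95.6 CPM in ND (1.17 without LPD 1, adjusted p = 0.00316, edgeR). Cth, the next enzyme of that pathway, and Psat1 of serine synthesis were called as well, at log2 fold changes of 1.15 and 0.85. Phgdh and Psph, the other serine synthesis enzymes of the list, and Mthfd2 and Aldh1l2 were not among the 9 called. Of the transporters, Slc7a5, which carries large neutral amino acids, had 147, 302, 328 and 351 CPM in LPD against 166, 177 and 198 CPM in ND (0.85 without LPD 1, adjusted p = 0.0179, edgeR). Slc7a1, which carries cationic amino acids, was called at 0.70, and Stc2, a secreted glycoprotein, and Eif4ebp1, a repressor of translation, completed the 9. The transporter genes Slc7a11, Slc3a2, Slc38a2 and Slc6a9 of the list were not called. Of a separate list of 27 amino acid transporters, 9 were higher and 2 lower at an unadjusted p under 0.05 with all libraries. Without LPD 1, 3 of the 27 were called higher (1.31% of all genes were), at a median log2 fold change of 0.08.

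The transcription factors and stress effectors of the list did not pass. Atf4 itself had 99.0, 135, 142 and 166 CPM in LPD against 139, 106 and 103 CPM in ND, with overlapping groups and a log2 fold change of 0.22 (SE 0.17). Ddit3, which encodes the stress factor CHOP, had 7.14 to 10.4 CPM in LPD against 7.96 to 10.2 CPM in ND. Trib3, an inhibitor of ATF4, had 2.12 to 5.27 CPM in LPD against 1.3 to 3.10 CPM in ND, and Chac1, which degrades glutathione, 0.80 to 5.59 CPM against 0.53 to 1.88 CPM. Of 20 cytosolic aminoacyl-tRNA synthetases, 1 was called higher without LPD 1, the asparaginyl enzyme Nars, where 1.31% of all genes were. The median log2 fold change of the list was then 0.32.

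**Figure D3:**
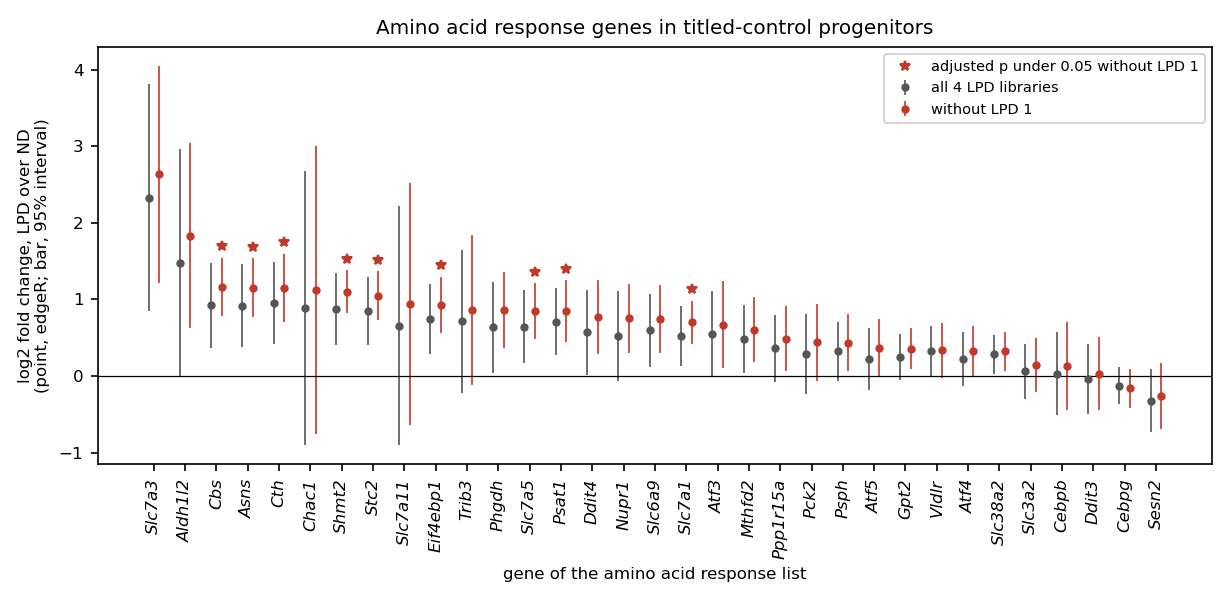
Log2 fold change, LPD over ND (vertical axis; points, edgeR estimates; bars, 95% intervals), of the 33 amino acid response genes tested (horizontal axis), with all 4 LPD libraries (grey) and without LPD 1 (red). Stars mark the 9 genes past an adjusted p of 0.05 without LPD 1, Asns, Cbs and Shmt2 among them, while Ddit3 and Slc3a2 lie near 0.

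Part of the glycolytic genes and of those that hypoxia induces were called higher without LPD 1. Of 15 glycolysis genes 10 had an unadjusted p under 0.05, all higher in LPD, against 4.55% of all genes. Without LPD 1 edgeR called 7 of the 15 higher, against 1.31% of all genes, with a median log2 fold change of 0.51. These were the glucose transporter Slc2a1, the kinases Hk2 and Pfkp, Gapdh, Pgam1, Eno1 and Ldha. Of 17 hypoxia-induced genes 3 were called higher without LPD 1, namely Car9, Egln3 and Bhlhe40, and the median was 0.39. By library the hypoxia list was uneven. Its median relative to the ND mean was 0.007, 0.50, 0.58 and 0.10 in LPD 1 to LPD 4. In ND 2, ND 3 and ND 4 it was -0.01, 0.07 and -0.01, so that LPD 4 lay close to ND 3. Vegfa, the endothelial growth factor, had 179, 220, 260 and 157 CPM in LPD against 245, 171 and 176 CPM in ND, which overlap.

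Car9, a carbonic anhydrase at the cell surface, and Egln3, a prolyl hydroxylase that marks HIF for degradation, had the smallest p of the hypoxia list. Their 250 bases before the start are shown because both hold the core of the hypoxia response element, ACGTG or its reverse complement CACGT, in capitals. They lie at chr4:43506776-43507025 (plus strand) and chr12:54203875-54204124 (minus strand) on GRCm38.p6, from RefSeq.
Car9: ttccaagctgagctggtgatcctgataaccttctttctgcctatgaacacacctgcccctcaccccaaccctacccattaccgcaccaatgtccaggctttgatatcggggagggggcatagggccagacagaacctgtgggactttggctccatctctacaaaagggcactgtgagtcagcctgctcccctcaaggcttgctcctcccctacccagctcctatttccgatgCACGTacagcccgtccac
Egln3: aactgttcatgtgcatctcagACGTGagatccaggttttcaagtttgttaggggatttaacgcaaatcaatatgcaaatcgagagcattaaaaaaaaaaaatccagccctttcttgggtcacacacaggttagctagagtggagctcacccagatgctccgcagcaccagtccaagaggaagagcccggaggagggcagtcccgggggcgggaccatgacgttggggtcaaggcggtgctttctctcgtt
ACGTG was found on either strand in 9 of 16 glycolysis genes (56.2%), 10 of 14 matched hypoxia genes (71.4%) and 66 of the 229 matched genes called higher without LPD 1 (28.8%), against 18.5% of all 27025 genes. No match of ACGTG overlapped one of TGATGNAA in the windows printed. The shares of the lists describe the chosen genes and not these libraries. The 27025 genes include genes not tested here, and a match is no evidence of binding.

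Car9 had 31.4, 89.6, 91.0 and 86.5 CPM in LPD 1 to LPD 4, against 28.1, 38.1 and 41.3 CPM in ND. LPD 2 to LPD 4 were all above the ND libraries and LPD 1 lay within them, and the log2 fold change was 1.06 with LPD 1 (SE 0.25, adjusted p = 0.612, edgeR) and 1.3 without it (SE 0.14, adjusted p = 0.000489, edgeR). Egln3 had 7.27, 27.7, 28.9 and 17.8 CPM in LPD against 6.59, 7.57 and 7.23 CPM in ND, a log2 fold change of 1.78 without LPD 1 (SE 0.27, adjusted p = 0.00254, edgeR). Ldha, which reduces pyruvate to lactate, had 227, 456, 481 and 442 CPM in LPD against 223, 246 and 301 CPM in ND, and 0.83 without LPD 1 (adjusted p = 0.00368, edgeR).

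No acinar gene passed with all libraries, and part of them were called higher without LPD 1, where 1.31% of all genes were. With all libraries 4.55% of all genes had an unadjusted p under 0.05 and were higher in LPD. Of 6 acinar transcription factors all did, at a median log2 fold change of 0.72. Without LPD 1 edgeR called 4 of them higher, Rbpjl, Bhlha15, Nr5a2 and Gata4. Rbpjl, the acinar partner of PTF1A, had 100, 211, 247 and 278 CPM in LPD against 118, 92.0 and 142 CPM in ND (1.05 without LPD 1, SE 0.16, adjusted p = 0.00243, edgeR). Of 25 enzymes and secretory proteins, 11 had an unadjusted p under 0.05, all of them higher in LPD, and 8 were called higher without LPD 1. Cpa1, a carboxypeptidase that also marks multipotent tip cells, had 846, 2272, 2496 and 3025 CPM in LPD against 1180, 1230 and 1342 CPM in ND. Its log2 fold change was 0.79 with LPD 1 (SE 0.27, adjusted p = 0.664, edgeR) and 1.04 without it (SE 0.16, adjusted p = 0.00326, edgeR). Ctrb1, Pnliprp1, Cela1, Cel, Prss2 and the trypsin inhibitor Spink1 were also called, with log2 fold changes of 0.98 to 1.96. Cela2a, an elastase, had 28.4, 85.1, 99.9 and 74.6 CPM in LPD against 93.5, 148 and 23.9 CPM in ND, which overlap. The summed level of the 25 genes was 5892, 15810, 17403 and 18168 CPM in LPD against 7621, 9555 and 7040 CPM in ND, with an exact two-sided permutation p of 0.229, where 4 against 3 libraries cannot go below 0.0571.

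**Figure D4:**
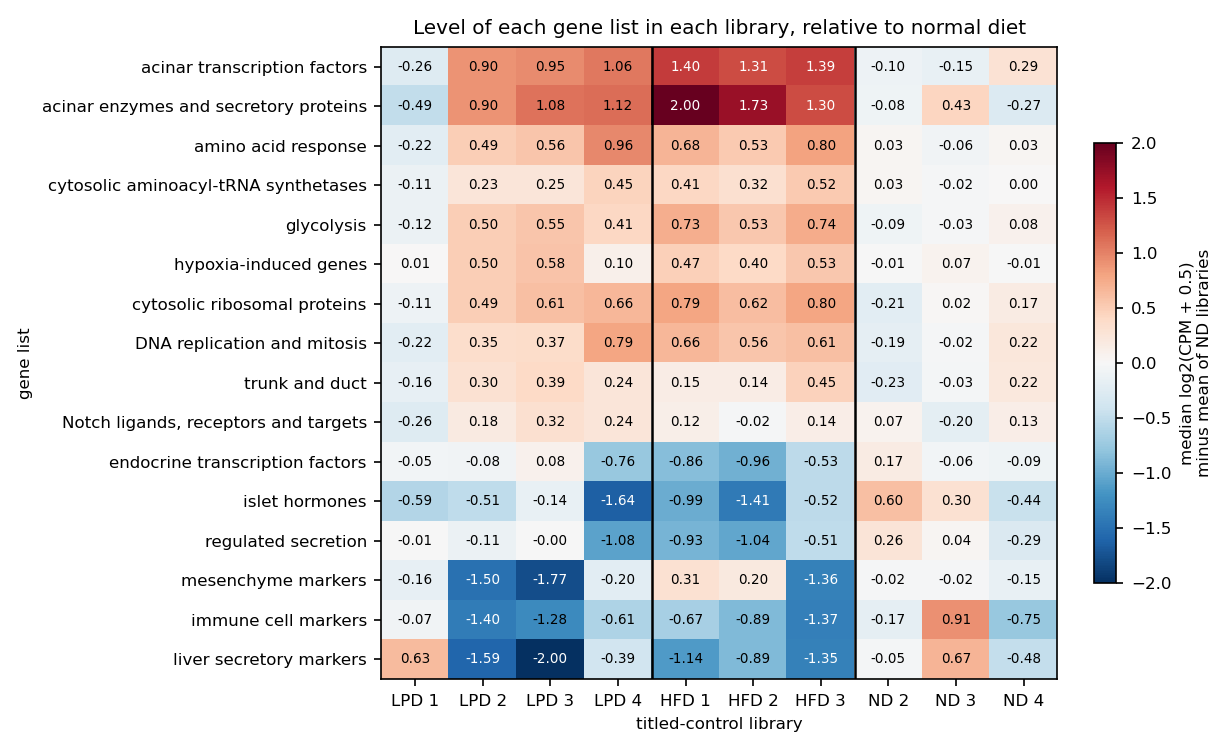
Median over each gene list of log2(CPM + 0.5) minus the mean of the 3 ND libraries (colour and number) in each titled control library (columns; LPD, HFD, then ND) for 16 gene lists (rows). Acinar, amino acid response, glycolysis and ribosomal protein lists are above 0 in LPD 2 to LPD 4 and below 0 in LPD 1, at -0.26 and -0.49 for the acinar lists.

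Some ribosomal protein and cell cycle genes were called higher without LPD 1. Of 45 cytosolic ribosomal protein genes, 21 had an unadjusted p under 0.05, all higher in LPD (4.55% of all genes were), and 10 were called higher without LPD 1 (1.31% of all genes were), at a median log2 fold change of 0.56. Rpl13 had 474, 802, 976 and 948 CPM in LPD against 454, 539 and 646 CPM in ND (0.72 without LPD 1, adjusted p = 0.00921, edgeR). Of 36 genes of DNA replication and mitosis, 12 had an unadjusted p under 0.05, and Top2a, Rrm2 and Plk1 were called higher without LPD 1, at a list median of 0.51. Mki67, the proliferation marker, had 344, 472, 468 and 689 CPM in LPD against 248.9, 384 and 399 CPM in ND, and it missed the threshold with LPD 1 (0.52, SE 0.19, adjusted p = 0.671, edgeR) and without it (0.64, adjusted p = 0.0596, edgeR).

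Without LPD 1, 2 of 24 trunk and duct genes and 2 of 24 Notch genes were called higher, against 1.31% of all genes. Hes1, the Notch target that represses Neurog3, had 32.1, 68.5, 68.4 and 86.6 CPM in LPD against 34.1, 36.4 and 52.0 CPM in ND (0.85 without LPD 1, SE 0.19, adjusted p = 0.0297, edgeR), and Notch1 was the other Notch gene called. Epcam and Cdh1, adhesion proteins of epithelia, were the called trunk and duct genes. Sox9, the transcription factor of trunk cells, had 88.1, 161, 192 and 167 CPM in LPD against 108, 108 and 160 CPM in ND and was not called with or without LPD 1. Pdx1, a transcription factor of early pancreas and beta cells, had 185, 191, 212 and 120 CPM in LPD against 234, 207 and 179 CPM in ND, a log2 fold change of -0.23 (SE 0.16).

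No hormone gene, endocrine transcription factor, secretion gene or glucose-sensing gene passed by edgeR, with or without LPD 1. Before adjustment, 0 of 10 hormone genes and 1 each of the 28 endocrine transcription factors, 31 secretion genes and 16 glucose-sensing genes had a p under 0.05 with all libraries, all lower in LPD. Over all genes 2.02% were lower at that p. Neurog3 had 205, 165, 191 and 135 CPM in LPD 1 to LPD 4, against 201, 172 and 170 CPM in ND, so the groups overlap. Its log2 fold change was -0.06 (SE 0.35, 95% interval -0.80 to 0.68, adjusted p = 0.994, edgeR). Neurod1, which acts downstream of it, had 113, 102, 112 and 48.9 CPM in LPD against 85.9, 111 and 94.3 CPM in ND. Ins2, which encodes insulin, had 1111, 929, 1240 and 526 CPM in LPD against 3086, 2448 and 744 CPM in ND, a log2 fold change of -1.14 with a 95% interval of -4.21 to 1.93. Gcg, which encodes glucagon, had 411, 388, 358 and 117 CPM in LPD, each below its 582, 911 and 466 CPM in ND, and a log2 fold change of -1.04 (SE 1.18). The edgeR errors of these genes also hold the spread of titled mutant libraries. There Ins2 had 96.5, 101, 0 and 0 CPM in LPD 1 to LPD 4. Sst, which encodes somatostatin, had 54.8 to 214 CPM in LPD against 104 to 475 CPM in ND, and Ghrl, which encodes ghrelin, 3.67 to 21.6 CPM against 9.68 to 16.6 CPM. Summed over 10 hormone genes, the level was 2793 ± 967 CPM in LPD (SD, n = 4) and 5110 ± 2324 CPM in ND (SD, n = 3), with an exact two-sided permutation p of 0.229. ND 4 had 2469 CPM, within the range of the LPD libraries, so that the other ND pair carries the difference. LPD 4 was lowest in Neurog3, Neurod1, Ins1, Ins2, Gcg, Sst and Ghrl.

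**Figure D5:**
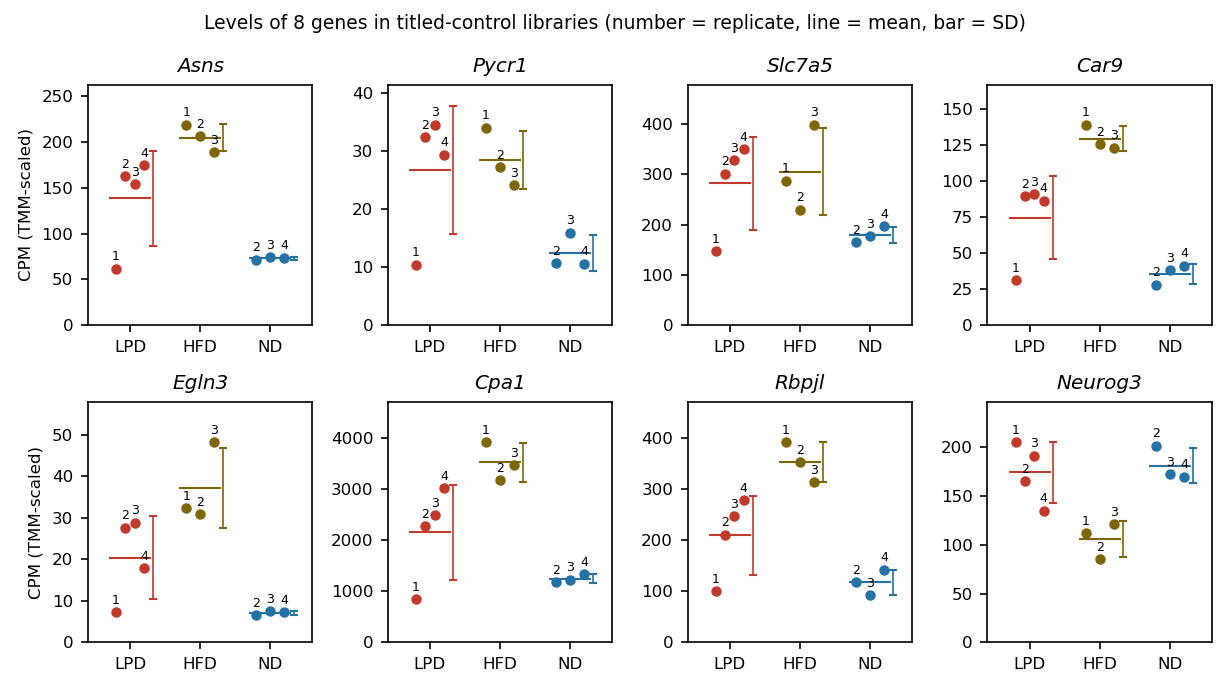
Levels in TMM-scaled CPM (vertical axes, from 0) of 8 genes in each LPD, HFD and ND library titled control; points carry the replicate number, lines are means and bars are SDs. Asns, Pycr1, Slc7a5, Car9, Egln3, Cpa1 and Rbpjl have LPD 2 to LPD 4 above every ND library with LPD 1 near or below the ND libraries, whereas Neurog3 overlaps between LPD and ND.

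Markers of other cells differed between the LPD libraries, although no gene of the mesenchyme, immune, liver or endothelium lists passed. LPD 4 did not share the low mesenchyme values of LPD 2 and LPD 3. The 20 mesenchyme markers summed to 1244, 596, 644 and 1361 CPM in LPD against 2610, 1395 and 1144 CPM in ND, and the 18 immune cell markers to 1052, 288, 307 and 604 CPM in LPD against 1016, 2223 and 610 CPM in ND. LPD 2 and LPD 3 were thus the lowest of the 7 libraries in both, while LPD 1 lay within the ND range. Of the mesenchyme markers Twist1 and Nkx2-5 were at 0 in at least 1 of the 7 libraries, and no immune marker was, Mrc1 and Csf1r of macrophages being the most abundant. The 19 liver secretory markers summed to 766 to 1169 CPM in LPD against 734 to 1254 CPM in ND. Their median log2 level relative to the ND mean was 0.63, -1.59, -2.0 and -0.39 in LPD 1 to LPD 4, against -0.05, 0.67 and -0.48 in ND 2 to ND 4, so the median was lowest in LPD 2 and LPD 3 although the sums overlap. The 14 endothelium markers summed to 145 to 350 CPM in LPD against 118 to 323 CPM in ND. The part of other cells in the acinar, amino acid and glycolysis values was not tested.

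Among genes past the threshold without LPD 1 with an established name and 5 CPM or more, the largest log2 fold changes were those of Prss2, Egln3, Aire, Il22ra1, Kctd14, Adora1, Mt1, Pycr1, Noxa1, Ass1, Hhip and Smpdl3b. Ass1, which makes argininosuccinate from citrulline and aspartate, had 85.3, 281, 289 and 225 CPM in LPD against 95.5, 126 and 90.5 CPM in ND (1.34, adjusted p = 0.00333, edgeR). Il22ra1, a subunit of the interleukin-22 receptor, had 12.5, 33.4, 34.3 and 32.6 CPM in LPD against 5.67, 12.2 and 16.2 CPM in ND (1.54, adjusted p = 0.00241, edgeR). LPD 1 lay within the ND range for Il22ra1 and below it for Ass1. Of the 10 genes of smallest p, Slc38a3, a glutamine transporter, Gamt, which makes creatine, Mgll, which hydrolyses monoacylglycerol, Cldn10 of tight junctions, Rims4 and Sntb1 had log2 fold changes of 0.89 to 1.24 without LPD 1. Igf2, the imprinted growth factor, had 30.5, 47.0, 83.5 and 101 CPM in LPD against 74.3, 40.2 and 63.3 CPM in ND and was not called.

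No gene passed against the high-fat diet by edgeR. The test of LPD against HFD called 0 of 23630 genes (0%) with all 4 LPD libraries, with 1463 at an unadjusted p under 0.05, and also 0 without LPD 1, with 985. DESeq2 called 8 higher and 14 lower in LPD, and limma on log2(FPKM + 1) called 2 lower, Tmed11 and Mir7076. Aldh1a1, a retinaldehyde dehydrogenase, had 29.1, 44.7, 40.3 and 46.6 CPM in LPD against 114, 106 and 58.4 CPM in HFD, without overlap (log2 fold change -1.21, SE 0.25, adjusted p = 0.579, edgeR). Tdh, Camkk1 and Spink1 were lower and Dennd2a and Scube3 higher in LPD at an adjusted p of 0.728 each (edgeR). The median log2 fold change of LPD over HFD was -1.03 for the acinar enzymes, -0.64 for the acinar transcription factors, -0.13 for the amino acid response list and 0.64 for the endocrine transcription factors, against 0.02 over all genes. Both diets were set against the same ND libraries, and in HFD against ND edgeR called 11 of the 33 amino acid response genes higher, where 3.1% of all genes were called higher. It also called higher 10 of 15 glycolysis, 4 of 17 hypoxia-induced, 17 of 45 ribosomal protein and 9 of 36 DNA replication and mitosis genes. Of the acinar lists, 6 of 6 transcription factors and 9 of 25 enzymes and secretory proteins were called higher. Car9 had 139, 126 and 123 CPM in HFD 1 to HFD 3, and Egln3 32.3, 30.9 and 48.3 CPM, above every LPD library. Asns had 219, 206 and 189 CPM in HFD 1 to HFD 3, each above its highest LPD library. Its log2 fold change of LPD over HFD was -0.57 with all 4 LPD libraries (adjusted p = 0.786, edgeR). Slc7a3, a cationic amino acid transporter chosen after its values were seen, had 0.46, 2.27, 1.96 and 3.09 CPM in LPD against 0.41, 0.55 and 0.52 CPM in HFD and 0.35, 0.36 and 0.45 CPM in ND. Its log2 fold change of LPD over HFD was 1.98 (SE 0.69, unadjusted p = 0.0094, adjusted p = 0.746, edgeR).

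No gene passed the test of a difference in the LPD change between the titles by edgeR. The interaction test called 0 of 23630 genes (0%), with 1383 at an unadjusted p under 0.05, DESeq2 and limma called 0, and without LPD 1 the count was also 0, with 2307. Among the genes of smallest p, Glp1r, Xkr5, Nrep, Syndig1l and H4c12 each had an adjusted p of 0.832 (edgeR). Nrep had 86.5 ± 8.9 CPM in LPD (SD, n = 4) and 88.0 ± 6.1 CPM in ND (SD, n = 3) of titled control, and 86.5 ± 3.0 CPM in LPD and 137 ± 19.2 CPM in ND of titled mutant (SD, n = 4 each). The titled mutant libraries share none of the 7 libraries, but their library numbers split by diet in a like way, with 18 to 21 for LPD and 10, 25, 26 and 28 for ND. There edgeR called 97 genes higher in LPD than in ND (0.41%). Of the 306 genes called higher in titled control without LPD 1, 13 were among these 97, which is 4.25% of the 306 and 13.4% of the 97. They include Rgs11, Deptor, Mknk1, Spink1, Herpud1, which removes misfolded proteins of the endoplasmic reticulum, and Irs2, an adaptor of the insulin receptor. The log2 fold change in titled mutant was above 0 for 288 of the 306 (94.1%), against 54.4% of all genes tested, and its median over the 306 was 0.32. Asns had 240, 236, 211 and 222 CPM in LPD 1 to LPD 4 of titled mutant, against 115, 102, 199 and 197 CPM in ND 1 to ND 4 of titled mutant (log2 fold change 0.57, SE 0.24, adjusted p = 0.165, edgeR). Of these ND libraries, ND 2 and ND 3 had 79.4% and 72.2% duplicate reads and gave 66.9% and 33.4% of their counts to Gm26917, and the part of these libraries and of the number split in the mutant values was not tested.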

How the data were processed

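Sorted eGFP-positive cells gave 24 libraries. According to the submitters' processing notes, trimming, alignment and counting involved cutadapt 2.10, STAR 2.7.8a, featureCounts 2.0.2 and the build GRCm38.p6. How strand was treated in counting is not given, so reads of a gene and its antisense partner cannot be told apart. The deposited counts are whole-number reads per gene with no normalization, the deposited FPKM values were made by the authors from the same reads, and percent of duplicates comes from the deposited read statistics.

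Of 40173 genes, 26 names stored as dates were matched back by identifier. Groups follow the titles. Counts of 21 libraries in 6 groups were fitted with edgeR 4.0.16 in R 4.3.3 (filterByExpr, TMM, robust quasi-likelihood F-tests), leaving 23630 genes with 99.9% or more of each library's counts. Benjamini-Hochberg adjustment ran over every gene tested, 0.05 was the threshold, and errors beside log2 values are standard errors. The comparisons were LPD against ND, its difference between titles, and LPD against HFD. Only the edgeR test of LPD against ND, titled control, was run on simulated counts, in which no LPD library was set apart. It recovered 68 of 100 simulated 2-fold changes and 97 of 100 4-fold changes, with 7 false calls. Library sums were compared by exact permutation tests. DESeq2 1.42.0, limma 3.58.1 on log2(FPKM + 1), other scalings, filters and covariates, the replicate number as a block and each library left out were alternatives. All fits without LPD 1 beyond its single omission were added after seeing the data.

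For LPD against ND, named genes include the 10 of smallest p with no overlap, an established name and a mean of at least 5 CPM. That mean is over the 7 libraries, and smallest p was used since fewer than 10 genes passed. A further 14 were included whatever their p, namely Ins1, Ins2, Gcg, Sst, Ghrl, Neurog3, Neurod1, Pdx1, Sox9, Hes1, Mki67, Cpa1, Asns and Igf2. In the other comparisons, named genes are the 6 of smallest p. Without LPD 1 they are the 12 largest and 12 smallest changes, the 10 of smallest p and up to 3 per list among the passing genes, and other list members serve as examples. The 7 libraries and the 35 gene lists were chosen with earlier results of these data known. Some genes that meet these rules are not reported here. Intervals cover the spread between libraries, which edgeR estimated over all libraries of the fit. Promoter windows are from RefSeq on GRCm38.p6. Figures were drawn with matplotlib 3.10.9.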

Additional observations from a re-analysis of the deposited data

Results flagged for a closer look

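With 4 LPD libraries, a library was called far from the others where its gap to the nearest exceeded Dixon's 95% critical value, which chance exceeds in about 1 of 20 groups. Of 84 quantities, 10 did so, and in 8 of them LPD 1 was the library apart. It was the lowest library for Car9 (31.4 CPM), Mgll (41.0 CPM), Cldn10 (19.1 CPM), Noxa1 (13.2 CPM), Il22ra1 (12.5 CPM), Hmga1b (9.47 CPM) and Rims4 (7.35 CPM), most of which were selected in a test that left LPD 1 out. It was also lowest in the summed level of the 33 nuclear respiratory chain genes, at 3000.1 CPM. LPD 4 was apart in 2 quantities: it was lowest in Neurod1, at 48.9 CPM, and highest in the share of mitochondrially encoded counts, at 1.11%.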

How the results depend on the processing

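For LPD against ND with all 4 LPD libraries, 0 genes passed under each alternative except DESeq2 (7), ND 4 as the only ND library (2) and single-library omissions, which ranged from 0 to 310. For LPD against HFD, DESeq2 called 22 and limma on log2(FPKM + 1) called 2; the difference between titles stayed at 0 in 11 alternatives. Without LPD 1 the 310 called genes became 805 with DESeq2, 44 with limma, 46 with only the compared groups, 836 without ND libraries of over 70% duplicates, 139 when the model held whether a number reached 25, and 2 without ND libraries numbered 25 or above, and further omissions gave 52 to 640; the cause was not tested. Replicate numbers did not pair libraries: deviations of same-numbered LPD and ND libraries correlated at 0.06, -0.19 and 0.14, not every library correlated best with its own number, and a replicate block gave 0 calls, 0 for LPD against HFD and 307 without LPD 1. Of 24 named genes, 9 changed sign somewhere, none of them past the threshold. Their log2 fold changes became -0.41 for Slc39a14, 0.17 for Neurog3, 0.30 for Ghrl, 0.32 for Neurod1 and -0.32 for Igf2 with the mixed-genotype library as ND; 0.14 for Neurog3, 0.22 for Sst and 0.036 for Ghrl with the number term; 0.025 for Neurog3, 0.44 for Ins1, 0.34 for Ins2, 0.40 for Sst, 0.31 for Ghrl and -0.084 for Sox9 with ND 4 alone. Over single omissions they ranged from -0.16 to 0.048 for Neurog3, -0.46 to 0.28 for Ghrl, -0.16 to 0.16 for Neurod1 and -0.14 to 0.37 for Igf2. The mixed-genotype library moved the median over all genes to 0.10, and limma that of the difference between titles to -0.20. The medians of the acinar, amino acid response, glycolysis, hypoxia, ribosomal protein, and DNA replication and mitosis lists were above 0 under every alternative. These were 18 to the fit with all 4 LPD libraries and 16 to the fit without LPD 1. A separate list of cell cycle exit genes had medians of -0.056 to 0.16 in the former and -0.0089 to 0.20 in the latter. With 4 and 3 libraries, the standard error had a median of 0.34 on the log2 scale over all genes.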
